A study of Pseudotsuga menziesii with 10 samples.

Results

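A set of 147 assembled transcripts (contigs) of Douglas-fir (Pseudotsuga menziesii) was abundant in every tissue and at every date examined, out of 54889 contigs measured. They were chosen by level alone: each stood at or above a floor of about 100 FPKM (fragments normalised for contig length and for the depth of the library) in every one of the 10 libraries. The rule therefore used every library, and number, level and steadiness of these contigs are given as a description. All libraries held polyA RNA. The cones came from a single clone, genotype 970, grown in a seed orchard, so only 1 maternal genotype was sampled. Megagametophytes were pooled in large numbers on 10, 22 and 30 June and 6 July 2011, either from bagged cones given a mix of pollen (pollinated) or from bagged cones left without pollen (unpollinated). Each of these 8 combinations gave 1 library. The labels describe the pollinated pools as megagametophyte and embryo together, and the unpollinated pools as megagametophyte. Whole cone scales and cone bracts, collected on 26 May 2011 from developing cones of the same genotype, were sequenced as 1 library apiece. Since each group had only 1 library, error was taken from other dates or tissues, and reads per library are unknown.

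The megagametophyte is the haploid female gametophyte of a conifer seed, which surrounds the embryo and stores the reserves that feed it. Scales and bracts are diploid tissue of the mother plant that form the cone around the seeds. Transcripts abundant in every tissue of a plant commonly include those for ribosomal proteins, translation factors, ubiquitin and the cytoskeleton, and steady ones among them are sought as references for expression measurements. The table pairs no contig with a gene name, so none of the 147 could be assigned to such a role, no gene list could be counted, and the tissue labels were not checked against marker genes. Contigs are named by identifier, and no sequence of them was used here.

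Abundance in all 10 libraries was uncommon even among abundant contigs. The floor was reached in 1 library or more by 2184 contigs, of which 498 reached it in a single library and 54 in 9 libraries. Each library had 729 to 901 contigs at the floor, and the 147 made up 16.3% to 20.2% of them. Their share of the summed FPKM was lowest on 10 June, at 6.36% in pollinated and 6.30% in unpollinated megagametophytes. For 22 June it was 9.06% and 10.2%, for 30 June 10.9% and 11.6%, and for 6 July 9.63% and 10.3%. Scales stood at 10.4% and bracts at 8.89%. Both libraries of 10 June thus lay under the other 8, and both of 30 June above the other 8. The other contigs at or above 100 FPKM held 37.9% and 39.3% of the summed FPKM on 10 June and 25.9% to 33.2% in the other 8 libraries. A share of a sum falls when other transcripts take more of it, and this part was not tested. In such bulk libraries, fewer cells of a type and less RNA per cell cannot be told apart.

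**Figure D1:**
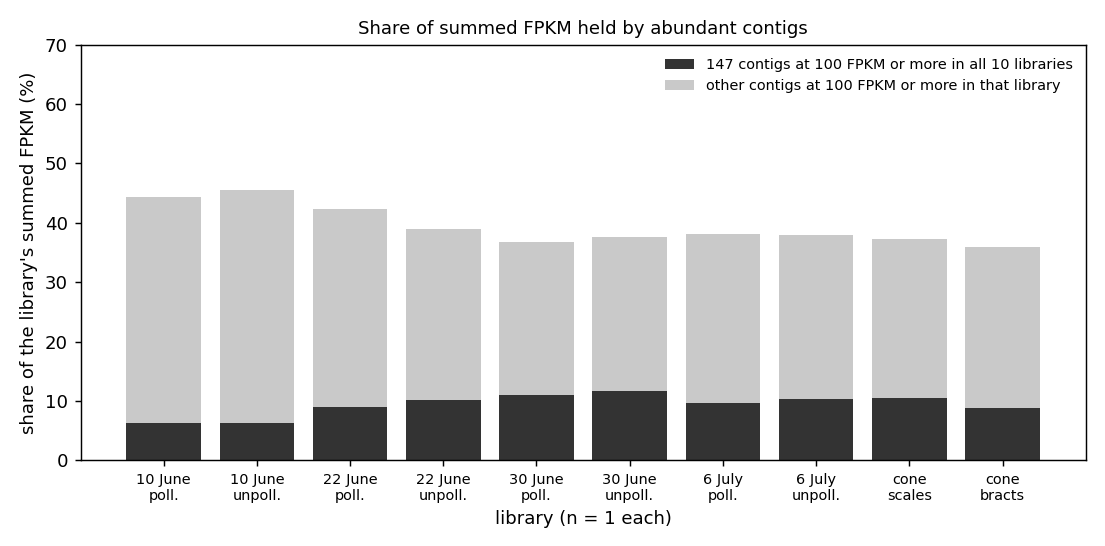
Share of each library's summed FPKM (vertical axis, percent) held by the 147 contigs (dark) and by other contigs at or above 100 FPKM in that library (light), with 1 library per bar. The dark part is 6.36% and 6.30% in the libraries of 10 June and 8.89% to 11.6% in the other 8.

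GAZW02024058 had the highest mean of the set, 1847 FPKM, and its highest level in all 8 megagametophyte libraries, while GAZW02044343 was higher in scales and bracts. It stood at 1819, 2061, 1819 and 1478 FPKM on the 4 dates in pollinated megagametophytes. The unpollinated pools had 2287, 1745, 1964 and 1509 FPKM, scales 1964 FPKM and bracts 1819 FPKM. Its highest value was thus 1.55 times its lowest, and it ranked 7 of 147 by steadiness. GAZW02056003, second by mean level, varied more, from 563 FPKM in unpollinated megagametophytes of 10 June to 1697 FPKM in pollinated ones of 30 June. The median of the 147 means was 235.0 FPKM, and the 10 highest contigs of a library held 19.2% to 26.5% of the set's FPKM.

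Steadiness was measured as the SD of log2(FPKM + 1) over the 10 libraries. GAZW02022894 had the lowest SD, 0.13. Pollinated megagametophytes stood at 161, 159.9, 207 and 168 FPKM on the 4 dates, unpollinated ones at 159.9, 183 and 166 FPKM on the first 3 and 153 FPKM on the last, scales at 181 FPKM and bracts at 153 FPKM. Only the pollinated library of 30 June stood above 200 FPKM. GAZW02006709, with an SD of 0.14, stood at 149, 159.9, 185 and 194 FPKM with pollen, and at 155, 179, 184 and 197 FPKM without it. Its levels in scales and bracts, 164 and 180.0 FPKM, lay inside that range, and both states were higher on each later date. GAZW02089035, with an SD of 0.14, ranged from 164 FPKM in pollinated megagametophytes of 30 June to 235 FPKM in unpollinated ones of 10 June. None of these 3 passed the tests of date or tissue described below (limma adjusted p 0.134 to 0.946). They were picked for the smallest SD over the same libraries and could hardly pass, so this is no further evidence of steadiness.

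Few of the 147 were as steady as that. The median SD was 0.40, and the median ratio of highest to lowest library was 2.34. All 10 libraries lay within 1.5-fold for 6 contigs and within 2-fold for 39. Among the 8 megagametophyte libraries alone, 64 stayed within 2-fold. At the other end, 19 contigs varied more than 4-fold and 3 more than 8-fold. The SD was not lower at higher levels (Spearman's rho 0.478 across the 147 contigs, which share the same libraries). By construction, a contig with a low mean and a large spread cannot reach the floor in every library. Centring each library on the median of the 13718 contigs at or above 1 FPKM throughout kept 6 of the 10 steadiest contigs among the 10 steadiest. After it GAZW02022894 ranked 2, GAZW02006709 ranked 1 and GAZW02089035 ranked 10, while GAZW02024058 moved from rank 7 to rank 28.

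**Figure D2:**
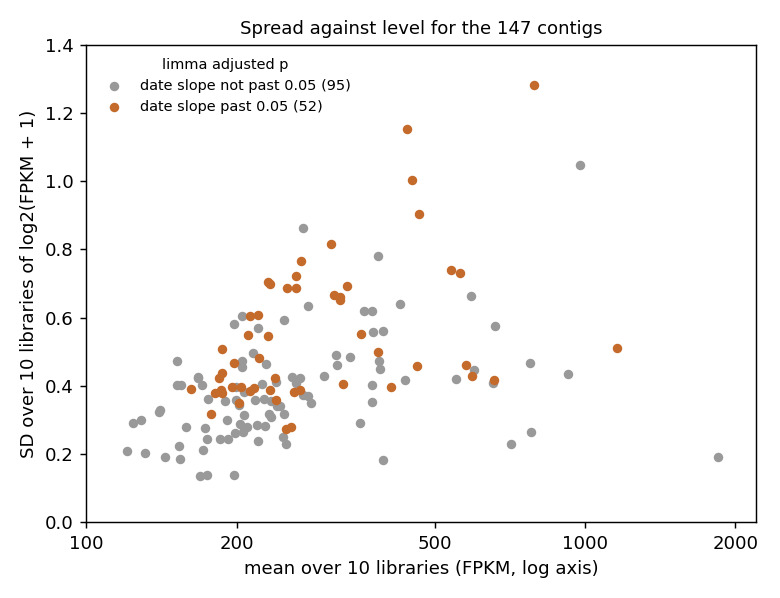
SD over the 10 libraries of log2(FPKM + 1) (vertical axis) against mean level in FPKM (horizontal log axis), 1 point per contig, coloured by whether the slope over dates passed in limma (52 contigs) or not. The highest point is GAZW02044343 with an SD of 1.28, and the point farthest right is GAZW02024058 with an SD of 0.19.

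The spread that remained followed date and tissue more than pollination. Of the sum of squares of log2(FPKM + 1) about each contig's mean, 55.8% lay between dates of the megagametophyte and 35.1% between megagametophyte and cone tissue. Pollinated and unpollinated pools of the same date accounted for 5.47%, and scales and bracts for 3.72%. These last parts also hold the error between libraries, for which there is no separate measure. The parts rest on unlike degrees of freedom, so their sizes are not like for like. Dates had more than tissue, and pollination more than scales against bracts. The other 608 contigs averaging at least 100 FPKM had a mean variance of 5.44, against 0.235 for the 147, a difference that the floor itself imposes. Their sum of squares was divided similarly, with 60.8%, 35.2%, 2.97% and 1.08%.

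Most of the 147 were lowest at the first date, and more were highest on 30 June than on any other date. Their median level was 170.3 FPKM with pollen and 176 FPKM without it on 10 June. For 22 June the medians were 239.5 and 245 FPKM, for 30 June 273 and 283 FPKM, and for 6 July 238 and 257 FPKM. Averaged over both states on the log2 scale, 105 contigs were lowest on 10 June, and 70 were highest on 30 June and 49 on 6 July. From 10 to 30 June 121 contigs were higher in both states, 27 of them 2-fold or more, while 9 were lower in both, 2 of them 2-fold or more. The change of a contig was similar in the 2 states, which share no library (Pearson's r 0.841 across the 147 contigs, given as a description). From 30 June to 6 July 79 contigs were lower in both states and 46 higher in both (r 0.889). Only 30 were higher at each of the 3 steps and 4 were lower at each. These counts were made for the 147 alone, and the floor limits how low such a contig can lie on any date.

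**Figure D3:**
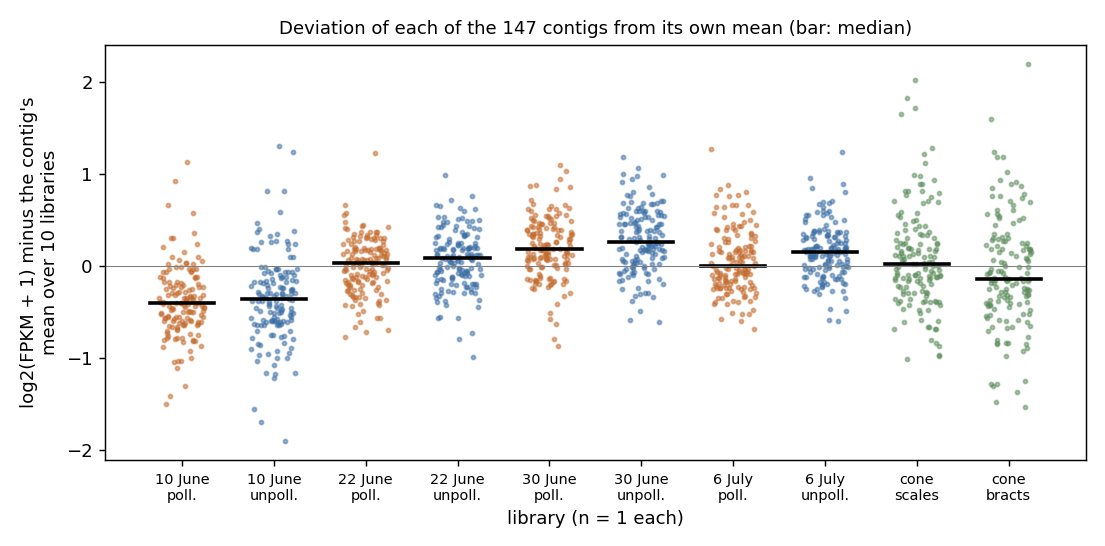
Level of each of the 147 contigs in each library as log2(FPKM + 1) minus the contig's own mean over the 10 libraries (vertical axis), 1 point per contig, with the median as a bar. The median deviation is -0.41 and -0.36 in the libraries of 10 June, 0.19 and 0.26 in those of 30 June, and 0.02 and -0.14 in scales and bracts.

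Part of this course was shared with other contigs. For the 13718 contigs at or above 1 FPKM throughout, the median on the log2(FPKM + 1) scale was 3.40 and 3.43 on 10 June and 3.71 and 3.70 on 30 June in pollinated and unpollinated megagametophytes. Their median change from 10 to 30 June was 0.36 log2 units in pollinated and 0.27 in unpollinated megagametophytes, against 0.64 and 0.72 for the 147. Both libraries of 10 June lay under all 6 later megagametophyte libraries for 83 of the 147 contigs, where 41.2% of contigs averaging at least 100 FPKM and 19.6% of those averaging at least 1 FPKM did so. Both lay above for 6 of the 147, where the same shares were 26.9% and 21.6%. A contig at the floor in all libraries has no room to be much lower in any of them, so these shares are not like for like. Both libraries of 30 June lay above the other 6 for 43 of the 147, with shares of 16.4% and 9.54%.

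**Figure D4:**
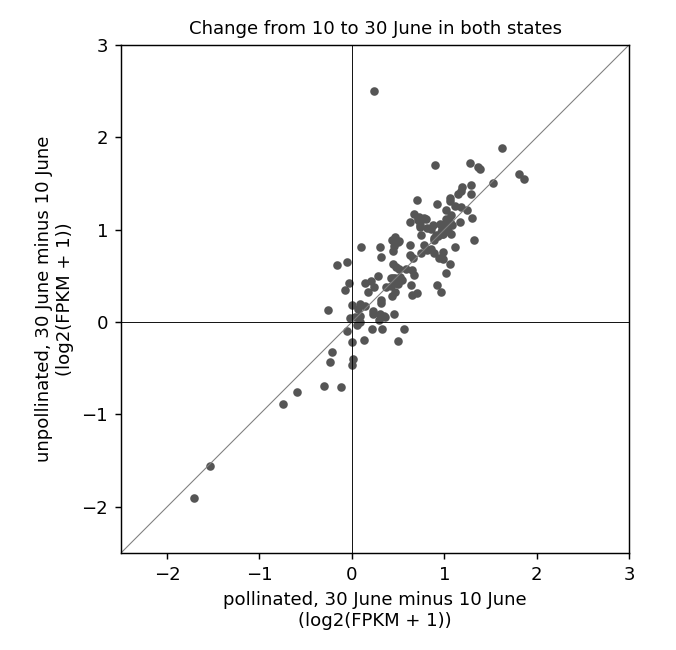
Change from 10 to 30 June on the log2(FPKM + 1) scale in unpollinated (vertical axis) against pollinated megagametophytes (horizontal axis), 1 point per contig, with the line of equal change. Of the 147 contigs, 121 lie above 0 on both axes and 9 below 0 on both, and the point highest above the line is GAZW02016630.

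Slopes over the dates were fitted in limma to all 27065 contigs averaging at least 1 FPKM. All 147 entered this test, and 52 of them passed at a Benjamini-Hochberg adjusted p under 0.05, where 32.7% of all contigs tested and 60.5% of the 800 averaging at least 100 FPKM passed. Of the 52, 47 rose and 5 fell, where 16.3% and 16.4% of all contigs tested, and 31.4% and 29.1% of the 800, did so. The split was 23 to 9 after centring each library on its median contig and 69 to 1 after quantile normalization, so the balance depended on the scale although more rose than fell on each. Over all contigs tested 8379 and 9741 passed on these scales, with their directions not counted. The median fitted change over 26 days was 0.50 log2 units for the 147, with a range of -1.85 to 1.97, and 0.12 for all contigs tested. It was 0.24 for the 147 after centring.

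The widest rise was that of GAZW02074666, which stood at 123, 214, 291 and 483 FPKM on the 4 dates with pollen, and at 111, 220.3, 259 and 529 FPKM without it. Every later date was higher in both states. The fitted change was 1.97 ± 0.23 (SE) log2 units, with a limma adjusted p of 0.00125. GAZW02060790 stood at 109.7, 169, 319 and 371 FPKM with pollen, and at 105, 205.5, 299 and 460.4 FPKM without it. The first and last dates did not overlap, and the fitted change was 1.96 ± 0.19 log2 units, with a limma adjusted p of 0.00107.

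The opposite course was that of GAZW02019429, which stood at 490.1, 273, 168 and 139 FPKM with pollen, and at 529, 245, 179 and 148 FPKM without it. Its last levels lay near those of scales (170.3 FPKM) and bracts (179 FPKM). The fitted change was -1.85 ± 0.19 log2 units, with a limma adjusted p of 0.00107. GAZW02025685 stood at 548, 255, 167 and 259 FPKM with pollen, and at 718, 197, 192 and 266 FPKM without it. It was thus high on 10 June and lower, with no steady course, after it. Its fitted change of -1.42 ± 0.46 log2 units, with a limma adjusted p of 0.0487, became 0.34 without both libraries of 10 June, and its limma adjusted p was 0.00556 to 0.741 over the alternatives. Its call also ended without either library of 10 June (0.216 and 0.286), either of 30 June (0.0826 and 0.0838) or the pollinated one of 22 June (limma adjusted p 0.0566). The calls of the other 3 named contigs held without any 1 library, but in the pollinated libraries alone all 3 missed the threshold (limma adjusted p 0.0661 to 0.0683). In the unpollinated libraries alone GAZW02060790 passed (limma adjusted p 0.0430), while GAZW02074666 (0.0607) and GAZW02019429 (0.0619) missed it.

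With date as 4 levels in place of a slope, 107 of the 147 passed in limma, among them 51 of the 52, where 41.1% of all contigs tested and 80.8% of those averaging at least 100 FPKM passed. The count on the slope fell to 18 without the pollinated and 19 without the unpollinated library of 10 June, to 34 without the unpollinated library of 6 July, and to 4 on the means of both libraries of each date. Over all contigs tested the count fell too, from 8853 to 4541, 4675, 6484 and 2423 in the same order. Both libraries of a date count as independent in these tests, although they were alike (Spearman's rho 0.934 to 0.963 across the 147 contigs).

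Pollinated and unpollinated megagametophytes of the same date were close. In limma with date as a block, 0 of the 147 contigs passed, 13 had an unadjusted p under 0.05, and the smallest adjusted p was 0.861. Of all 27065 contigs tested 0.00369% passed, and 1302 had an unadjusted p under 0.05. Of the 800 averaging at least 100 FPKM, 44 did. A fitted difference was below 0 (lower in pollinated) for 109 contigs and above 0 for 38, with a median of -0.08 log2 units and a range of -0.52 to 0.44, while the median over all contigs tested was 0.01. The median difference was -0.03, -0.05, -0.09 and -0.14 log2 units on the 4 dates. For all contigs at or above 100 FPKM in both libraries of a date it was -0.05, 0.04, -0.045 and -0.03. The pollinated pool was the lower on 4 of 4 dates for 35 of the 147 contigs, where 9.38% of contigs averaging at least 100 FPKM and 6.92% of those averaging at least 1 FPKM were so. It was the higher on 4 of 4 dates for 2 contigs, with shares of 2.38% and 5.51%. All contigs share the same 4 pairs of libraries, so a small shift of a whole library moves many of them together. These counts are thus a description. The pollinated pools are also labelled as holding embryo, and the cause of the difference was not tested.

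The contigs with the smallest p did not pass. GAZW02067868 stood at 116, 253, 251 and 308 FPKM on the 4 dates with pollen, and at 158, 442, 376 and 371 FPKM without it, lower in the pollinated pool on 4 of 4 dates. The fitted difference was -0.52 ± 0.11 (SE) log2 units, with a limma adjusted p of 0.861. GAZW02076600 differed by -0.415 ± 0.09 log2 units (the same adjusted p). On the other side GAZW02048727 and GAZW02086320 differed by 0.18 ± 0.09 and 0.18 ± 0.11 log2 units, also with a limma adjusted p of 0.861. Over the alternatives the limma adjusted p of these 4 contigs was 0.556 to 1.

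A single contig was 2-fold or more apart between the states on any date. GAZW02016630, ranked 3 by mean level, stood at 831 FPKM with pollen and 213 FPKM without it on 10 June, a ratio of 3.90. On the later dates the pair stood at 1884 and 1595, 981 and 1208, and 1074 and 1192 FPKM. Scales had 497 FPKM and bracts 277 FPKM. Of the contigs at or above 100 FPKM in both libraries of a date, the share 2-fold or more apart was 1.12% for 10 June, 1.77% for 22 June, 2.64% for 30 June and 2.7% for 6 July. The pairs of libraries have no replicate check.

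Slopes over the dates were also compared between the states, since fertilization follows only pollination. In limma 0 of the 147 contigs passed, 0 had an unadjusted p under 0.05 and the smallest adjusted p was 1, and 0% of all contigs tested passed. Of the 27065 contigs tested, 569 had an unadjusted p under 0.05. The slopes were straight lines, so any bend in the course over the dates counted as error. The test could thus miss differences, and the count of 0 is no evidence that the courses were alike. The slope of GAZW02016630 was lower in pollinated megagametophytes by 2.22 ± 1.28 (SE) log2 units over 26 days, a fitted difference of -2.22 that became 0.99 without the unpollinated library of 10 June (limma adjusted p 0.935 to 1 over the alternatives). GAZW02026931 differed by -0.57 ± 0.52, GAZW02017351 by 0.76 ± 0.49 and GAZW02036486 by 0.64 ± 0.53 log2 units, each with a limma adjusted p of 1.

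Megagametophyte and cone tissue differed in both directions. In limma, 24 of the 147 contigs passed when the 8 megagametophyte libraries were set against scales and bracts, 11 higher and 13 lower in megagametophytes, where 27.2% of the 29445 contigs tested and 33.9% of the 755 averaging at least 100 FPKM passed. The shares higher and lower were 11% and 16.2% of all contigs tested and 23.3% and 10.6% of the 755. The split among the 147 was 10 to 21 after median centring and 5 to 12 after quantile normalization. On these scales 8184 and 8869 of all contigs tested passed, with their directions not counted. The median difference was 0.06 log2 units, with a range of -2.63 to 1.56, and 0.08 over all contigs tested. All 8 megagametophyte libraries lay above both cone tissues for 23 contigs and below both for 22, where 29.8% and 14.3% of contigs averaging at least 100 FPKM and 15.9% and 19.4% of those averaging at least 1 FPKM did so.

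The contig with the widest spread of the set was GAZW02044343, at 2164 FPKM in scales, with 2451 FPKM in bracts. In megagametophytes it stood at 188, 323, 483 and 522 FPKM on the 4 dates with pollen and at 163, 424, 525 and 634 FPKM without. All 8 lay far below both cone tissues, a difference of -2.63 ± 0.49 (SE) log2 units with a limma adjusted p of 0.00271, while its change over 26 days was 1.74 with a limma adjusted p of 0.00182. GAZW02074666, described above for its rise, was at 1167 FPKM in scales, with 995 FPKM in bracts, above its highest megagametophyte level of 529 FPKM. The difference was -2.14 ± 0.55 log2 units, with a limma adjusted p of 0.0151. Without scales that p was 0.126 and without bracts 0.118, and for GAZW02044343 it was 0.0559 without bracts in limma, while the differences were between -2.54 and -2.02 in these fits.

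The opposite difference was clearest for GAZW02097343, which stood at 487, 487, 575 and 483 FPKM with pollen, and at 424, 473, 552 and 427 FPKM without it, against 201 FPKM in scales, with 152 FPKM in bracts. It was steady over the dates, without overlap with the cone tissues. The difference was 1.47 ± 0.18 log2 units, with a limma adjusted p of 0.000183. GAZW02050714 differed by 1.33 ± 0.38 log2 units, with a limma adjusted p of 0.0268. It ranged from 295 to 897 FPKM in megagametophytes and stood at 264 FPKM in scales, with 203 FPKM in bracts. Its limma adjusted p was 0.111 without scales and 0.276 without bracts, whereas GAZW02097343 passed under every alternative run (0.0171 at most).

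**Figure D5:**
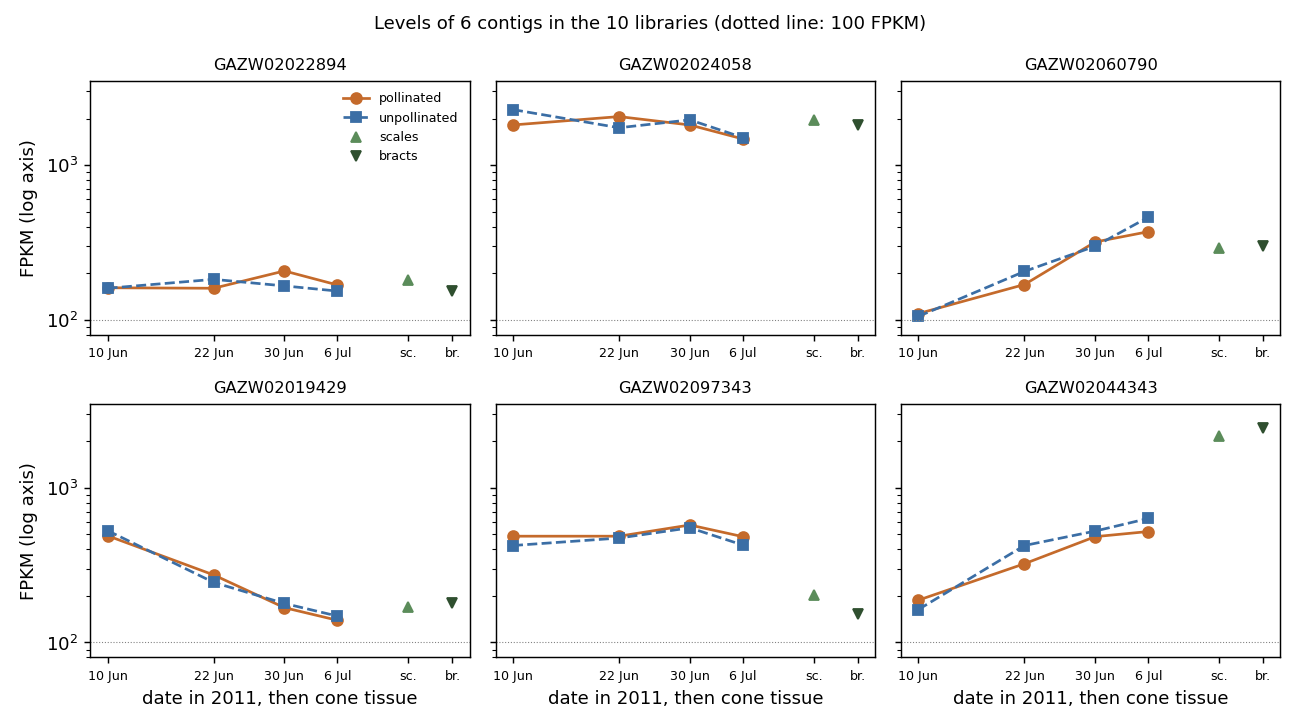
FPKM (vertical log axis) of 6 contigs on the 4 dates in pollinated and unpollinated megagametophytes and in cone scales and bracts, 1 library per point, with the floor of 100 FPKM dotted. GAZW02022894 and GAZW02024058 are nearly level, GAZW02060790 rises and GAZW02019429 falls with date, GAZW02097343 is lower in cone tissue and GAZW02044343 is higher there.

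The tissue comparison changed with the date of the megagametophytes. The median difference from scales was -0.41 and -0.36 log2 units for the pollinated and unpollinated pools of 10 June, 0.01 and 0.02 for 22 June, 0.19 and 0.19 for 30 June, and 0.04 and 0.12 for 6 July. These values share the library of scales. Against the pools of 10 June alone 63 contigs passed in limma, 12 higher and 51 lower, and with those of 6 July 26 passed, 15 higher and 11 lower. Over all contigs tested, 14362 passed with 10 June alone and 7057 with 6 July alone, against 8022 with all dates. Directions over all contigs were not counted in these fits, so the shift in direction has no such share beside it. Fits on a single date also had fewer libraries and left the spread between dates out of the error. The order of the 147 by level was closest to that of the cone tissues on the last date. Spearman's rho with scales was 0.346 to 0.413 on 10 June and 0.633 to 0.661 on 6 July, and with bracts 0.259 to 0.281 and 0.551 to 0.599. The 13718 contigs at or above 1 FPKM throughout shifted likewise. Their rho with scales was 0.548 to 0.587 on 10 June and 0.747 to 0.758 on 6 July. With bracts it was 0.499 to 0.512 and 0.673 to 0.706. Leaving out scales or bracts leaves a single library of cone tissue. The median fitted difference of the 147 was then 0.145 log2 units without scales and 0.02 without bracts, against 0.06 with both. Tissue and collection date cannot be told apart.

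Scales and bracts differed little in this set, and each had 1 library, so no test was made. Scales were the higher for 102 contigs and bracts for 44, with a median difference of 0.13 log2 units, where the 569 contigs at or above 100 FPKM in both had a median of 0.01. Of those 569, 7.73% were 2-fold or more apart, and of the 147 contigs 3 were, all of them higher in scales. The widest was GAZW02039307, at 511 FPKM in scales, with 139 FPKM in bracts, a ratio of 3.67. At the other end GAZW02086320 stood at 115 FPKM in scales, with 229.7 FPKM in bracts.

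Membership depended mostly on 3 libraries. The lowest level of a contig lay in a library of 10 June for 42 (pollinated) and 38 (unpollinated) of the 147, and in bracts for 35. Among the 54 contigs that missed the floor in a single library, that library was bracts for 24, unpollinated megagametophytes of 10 June for 15 and pollinated ones for 9. Just inside the floor, GAZW02014064, GAZW02048588 and GAZW02065764 had a lowest level of 100.1 FPKM. Just outside, GAZW02053204 and GAZW02089330 had a lowest level of 99.4 FPKM, both in a library of 10 June. Within 0.1 log2 units of the floor there were 16 contigs inside and 26 outside.

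Some of the 147 may be pieces or relatives of the same gene, which the table does not show. Consecutive identifier numbers were held by 8 of them, in 4 pairs. The levels of the pairs over the 10 libraries correlated at 0.270, 0.619, 0.658 and 0.956 (Pearson's r), where the median over all pairs of the 147 was 0.308. The pair at 0.956 was GAZW02052042 and GAZW02052043, with means of 186 and 658 FPKM.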

How the data were processed

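PolyA RNA of 10 libraries was read from both fragment ends without strand information, per the labels' protocols. With no roles given, the submitters' processing notes list RSEM 1.2.12, Bowtie 1.0.1, Trim Galore 0.2, FastQC 0.10, R 3.1.0 and bedtools 2.17. The authors deposited 1 table of 54889 contigs, whose values of 0.01 to 12.28 were read as log2(FPKM + 1). The logarithm's base and offset are not stated in these sources, and every FPKM level rests on this reading, to which the lowest maximum of any contig, 1.01, corresponds as about 1 FPKM. Undone, the values summed to 466481 to 561810 FPKM per library. Reads per library are unknown, so no counting error is given. Related contigs may share reads.

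Tests used limma 3.58.1 in R 4.3.3 (lmFit, eBayes with an intensity trend) on the deposited log2 values of all contigs averaging at least 1 FPKM, with Benjamini-Hochberg adjusted p under 0.05 over all of them. Date was a slope with pollination state as a term, with 5 residual degrees of freedom. Pollination had date as a block, with 3. The interaction of both left 4, and tissue left 8. The p-values measure spread between libraries of other dates or tissues, not between repeated pools. The fits were also run on simulated data with independent error in each library. That setting does not cover the likeness between libraries of the same date. Named contigs were per test and direction, the 2 passing ones of largest fitted change (if none passed, the 2 of lowest p), the steadiest 3, the 2 with the widest spread, the 2 highest, those at the floor, and the widest fold of scales against bracts; of the widest folds on single dates only the one of 2-fold or more is described. Summaries and plots were made in Python 3.11.15 (pandas 2.3.3, numpy 2.4.6, matplotlib 3.10.9). The members, contrasts and alternatives were chosen with earlier results of these data known, and the fit with date as 4 levels was one of the alternatives.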

Additional observations from a re-analysis of the deposited data

How the results depend on the processing

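Libraries could not be paired by replicate number, since no group had a second library and the labels carry no such numbers. The 2 pollination states were paired by date, as the block of the pollination test, and the count was 0 with and without that block. The number of contigs abundant in all libraries was 494 at a floor of 50 FPKM and 29 at 200 FPKM, with median shares of the summed FPKM of 19.5% and 3.84%, against 147 and 9.90%. It was 139 after quantile normalization, 164 after median centring and 147 to 171 without 1 library, with median shares of 9.63% to 11.1%. The count of 52 for date in limma became 22 without a filter on low values, 32 after median centring, 107 with date as 4 levels and 4 on the means of each date. It was 12 without both libraries of 10 June and 24 without both of 30 June, 18 to 53 without 1 library, and 0 in the pollinated and 1 in the unpollinated libraries alone (31 and 25 at an unadjusted p under 0.05). Of all contigs tested, 8853 passed for date in the main fit, 8221 without the filter, 8379 after median centring and 2423 on the means. They numbered 2652 without both libraries of 10 June, 6295 without both of 30 June, and 0 and 1827 in the pollinated and unpollinated libraries alone. The count of 24 for tissue became 63 with 10 June as the only megagametophytes and 5 to 28 without 1 library. Over all contigs tested the count for tissue was 8022 in the main fit and 14362 with 10 June as the only megagametophytes. Counts for pollination and for the interaction were 0 under every alternative run. The sign turned for GAZW02025685 over dates (0.34 without both libraries of 10 June) and, without the unpollinated library of 10 June, for the interaction of GAZW02016630 (0.99) and GAZW02026931 (0.12), which ranged from -3.99 to 0.99 and from -1.37 to 0.12 without 1 library. The fits without libraries, on date means or in 1 state had fewer libraries, and the cause of the other shifts was not tested. Without reads per library, the precision of single values is unknown.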

Other observations

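The identifiers of the 147 contigs were not spread evenly over the numbering of the table. Of the 147, 92 (62.6%) had a number below the median number of all contigs, and 65.1% of the other 608 contigs averaging at least 100 FPKM did so too. What the numbering follows is not stated. The value at a fixed rank differed between libraries: the contig at rank 147 stood at 8.63 and 8.65 on the log2(FPKM + 1) scale in the libraries of 10 June and at 8.16 to 8.39 in the other 8.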
